A study of Homo sapiens with 12 samples.

Results

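Splicing factors of 3 families were examined together in xenograft tumours of a lung cancer line: the heterogeneous nuclear ribonucleoproteins (hnRNPs), the serine and arginine rich splicing factors (SRSFs, or SR proteins) and the SF3A and SF3B subunits of the U2 particle. The members were all genes on the array whose symbol begins with HNRNP, is SRSF with a number, or is SF3A or SF3B with a number. This gave 45 of the 20046 genes with a probe, made up of 24 hnRNP, 12 SRSF and 9 SF3 genes, after 4 hnRNP pseudogenes were left out. They were read by 81 of 47323 probes, and 43 members were among the 12300 genes detected on at least 2 arrays and tested. The 2 that were not tested, SF3A1 (1 probe) and HNRNPCL1 (2 probes), passed the detection limit on 0 of 12 arrays. All tumours were grown in mice from H3122, a human lung adenocarcinoma line that carries the EML4-ALK fusion, and the drug was ceritinib, an inhibitor of the ALK kinase. There were 2 control tumours, 4 tumours at 75 mg/kg, 3 at 87.5 mg/kg and 3 at 100 mg/kg, the treated ones taken after they had become resistant, per the study's design text. The labels name neither a treated tumour that was still responding nor a resistant tumour without drug, so the effect of ceritinib and the state of resistance cannot be told apart. Nor do they record if the tumours came from separate mice, so the p-values measure the spread between these tumours, which may in part be technical.

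SR proteins bind exonic enhancers in pre-messenger RNA through their RNA recognition motifs and use their arginine and serine rich tails to recruit the splicing machinery. hnRNPs coat nascent transcripts and often, though not always, act against SR proteins at nearby sites, so that the balance between the families shifts which exons are kept. SF3A and SF3B are core parts of the U2 small nuclear ribonucleoprotein, which recognises the branch point of every intron of the major class, and SF3B1 is a recurrent target of mutation in cancer. Many members control their own messenger RNA through poison exons and nonsense-mediated decay, so a change of transcript level need not be a change of protein.

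Signals are on the log2 scale after background correction and quantile normalization, and a difference is the treated value minus the control value on that scale. Each array detected between 17993 and 19478 probes, and all pairs of arrays correlated at 0.936 to 0.99. The tumour label was borne out by epithelial markers, of which 7 of 8 were detected on all 12 arrays, with KRT18 the exception, and their log2 summed signal was 16.59 to 16.84 in treated tumours and 16.77 to 17.00 in controls. The summed fibroblast and endothelial markers did not overlap between treated and control tumours, and the leucocyte markers did. Fibroblast markers, of which 4 of 7 were detected on any array and COL3A1, PDGFRB and THY1 on 0, summed to 9.36 to 10.57 in treated tumours and 10.86 to 10.90 in controls. Endothelial markers, of which 4 of 5 were detected and CLDN5 on 0 arrays, summed to 9.91 to 10.57 in treated tumours and 9.41 to 9.54 in controls. Leucocyte markers, of which 4 of 7 were detected and PTPRC, CSF1R and CD3E on 0, summed to 12.47 to 13.17 in treated tumours and 12.02 to 12.81 in controls. Single markers departed from these sums. In every treated tumour KRT7, KRT19 and CDH1 were below both controls and NKX2-1 and NAPSA above both, while EPCAM, KRT8 and KRT18 overlapped. COL1A1 was below both controls in every treated tumour, and PECAM1, detected on 3 arrays, above both. The other detected fibroblast and endothelial markers, COL1A2, DCN, LUM, VWF, CDH5 and KDR, overlapped. Of all tested genes, 22.5% did not overlap. CD163 was detected in 10 treated and 0 control tumours, and CD68, CD14 and AIF1 overlapped. The array is human and the host is mouse, and the part of other cells in the results below was not tested. In bulk tumours, fewer cells of a type and less RNA per cell cannot be told apart.

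The splicing factors as a whole lay close to their control level in the treated tumours, with lower transcript levels of HNRNPA0 and SRSF3 as the members that passed the test. Of 43 members, 2 (4.65%) passed an adjusted p of 0.05 in limma with the Benjamini-Hochberg method, both lower, where 18.8% of all 12300 genes passed and 8.97% were lower. At an unadjusted p under 0.05 there were 10 members (23.3%), against 33% of all genes. The median difference of the members was -0.04, with 17 positive and 26 negative values, and that of all genes was 0.02. By family the median was -0.11 for 23 hnRNP genes (1 called), 0.04 for 12 SRSF genes (1 called) and -0.01 for 8 SF3 genes (0 called, 1 at an unadjusted p under 0.05). The counts depended on the scaling of the arrays. With each array scaled to 1 median, 7 members were called, all lower (HNRNPA3, HNRNPK, HNRNPL, SF3B4 and SRSF9 besides those 2), and 21.2% of all genes, with a median of -0.11 over all genes and -0.18 over the members. With unnormalized signals, 11 members were called, all lower, and 26% of all genes, with medians of -0.16 and -0.24. No overlap between the 10 treated and the 2 control tumours was seen for 6 members (14%), against 22.5% of all genes. For HNRNPA1 and SRSF5 every treated tumour was the higher, as for 11.5% of all genes, and for HNRNPA0, HNRNPK, SRSF3 and SRSF9 every treated tumour was the lower, as for 11%.

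**Figure D1:**
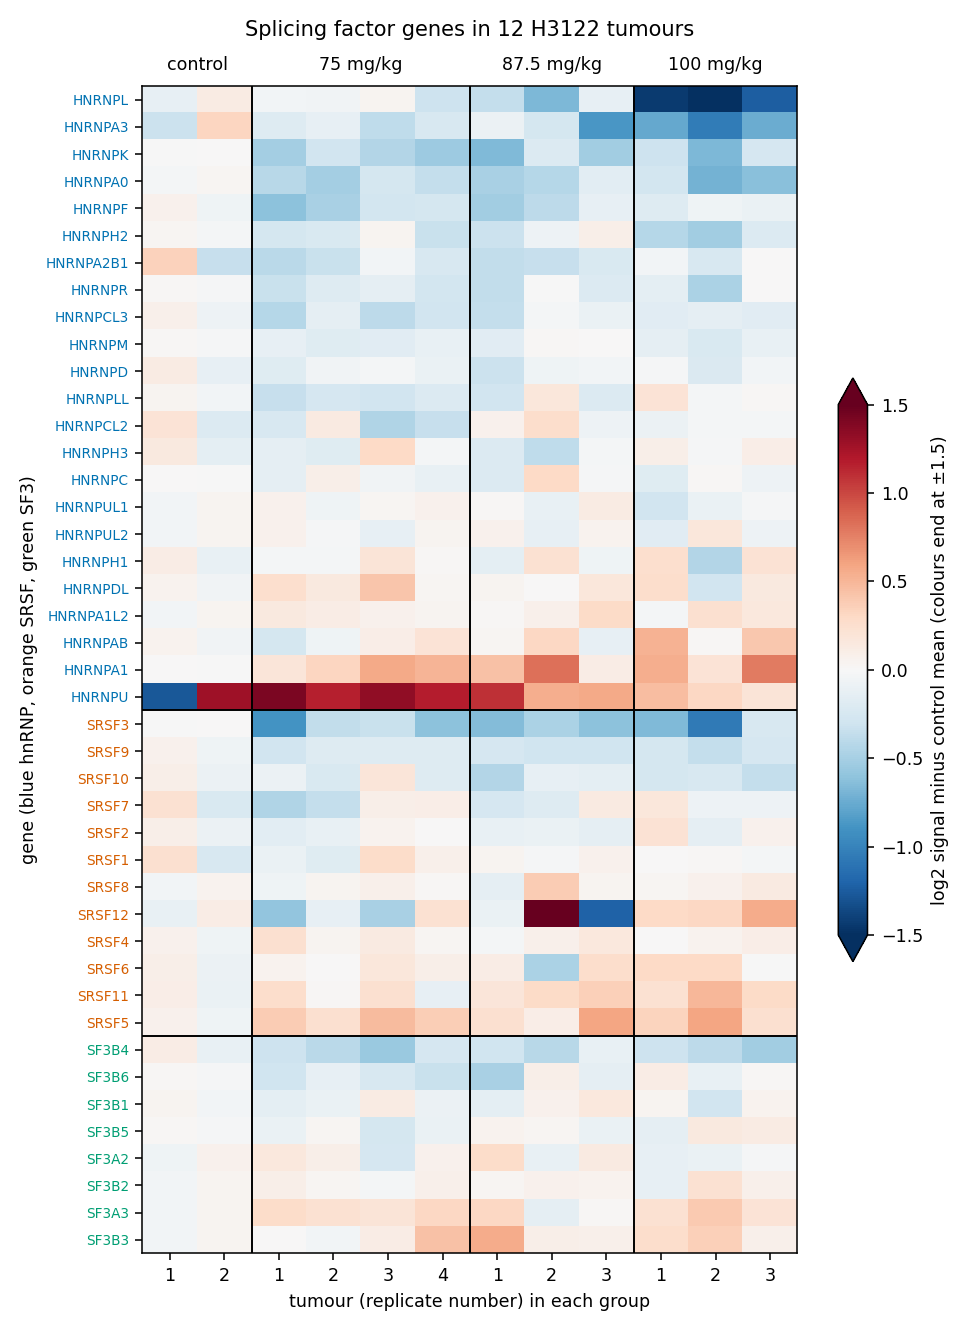
Log2 signal of each tested member minus its mean over the 2 control tumours, for 12 tumours (columns, control and then rising dose, with the replicate number below) and 43 genes (blue labels hnRNP, orange SRSF, green SF3). Most cells are pale, and the dark ones include HNRNPL at 100 mg/kg, where the 3 tumours read 9.20, 8.0 and 9.40, HNRNPU, whose 2 controls read 10.43 and 12.98, and SRSF12, with 7.95 and 5.16 in 2 tumours at 87.5 mg/kg.

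The smallest adjusted p among the members belonged to HNRNPL, which encodes a protein that binds CA repeats and CA-rich clusters and can either repress or enhance the neighbouring exon. Its signals were 10.51 and 10.76 in controls, then 10.60, 10.59, 10.68 and 10.33 at 75 mg/kg, 10.27, 9.96 and 10.52 at 87.5 mg/kg, and 9.20, 8.0 and 9.40 at 100 mg/kg. All 3 tumours at 100 mg/kg were below every other tumour, and replicate 2 was the lowest. HNRNPL fell 3.41-fold at 100 mg/kg against control (log2 difference -1.77, SE 0.34, adjusted p = 0.00363). The differences at the lower doses were -0.09 (SE 0.32) at 75 mg/kg and -0.39 (SE 0.34) at 87.5 mg/kg, neither past the threshold. Set against 75 mg/kg, HNRNPL was 3.21-fold lower at 100 mg/kg (log2 -1.68, SE 0.28, adjusted p = 0.0333), and this call ended when any 1 of those 7 tumours was left out, with adjusted p between 0.0523 and 0.122. Set against 87.5 mg/kg, the difference was -1.38 (SE 0.30, adjusted p = 0.0662). The mean over the 3 doses was -0.75 (SE 0.29, adjusted p = 0.0933).

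The fall of HNRNPL at 100 mg/kg against control passed the threshold in each of the 24 other settings run, at -2.03 to -1.34 (adjusted p 0.00175 to 0.0363) over the 12 that leave out a tumour and -1.91 to -1.56 (adjusted p 0.000925 to 0.031) over the other 12. It rests on 1 probe, so another stretch of the transcript was not measured. Its close relative HNRNPLL, which encodes a protein known for the splicing of the leucocyte antigen CD45, had a difference of 0.07 (SE 0.15, adjusted p = 0.782) at 100 mg/kg against control. Its signals of 10.39, 10.16 and 10.21 at 100 mg/kg lay above the 9.84, 9.93, 9.90 and 9.99 at 75 mg/kg (log2 0.34, SE 0.12, adjusted p = 0.21). Fibroblast markers summed to 9.43 to 9.78 at 100 mg/kg, 9.36 to 9.95 at 75 mg/kg and 10.86 to 10.90 in controls, and endothelial markers to 10.34 to 10.50, 10.18 to 10.57 and 9.41 to 9.54. Leucocyte markers summed to 12.47 to 12.74 at 100 mg/kg and 12.77 to 13.17 at 75 mg/kg, which did not overlap but lay close. Epithelial markers summed to 16.7 to 16.842 at 100 mg/kg and 16.591 to 16.699 at 75 mg/kg, which did not overlap either but all but met. Between these doses 18.8% of all genes did not overlap. The part of the marker sums in the difference of HNRNPL was not tested. The promoter of HNRNPL, from 250 bases before to 50 after the start, is given to show the region from which this transcript begins, with matches to common promoter motifs, on either strand, in capitals. It lies at chr19:38852298-38852597 on the minus strand (RefSeq, GRCh38.p14) and holds a CCAAT box 80 bases before the start and GC boxes 231 and 27 bases before it.
HNRNPL promoter: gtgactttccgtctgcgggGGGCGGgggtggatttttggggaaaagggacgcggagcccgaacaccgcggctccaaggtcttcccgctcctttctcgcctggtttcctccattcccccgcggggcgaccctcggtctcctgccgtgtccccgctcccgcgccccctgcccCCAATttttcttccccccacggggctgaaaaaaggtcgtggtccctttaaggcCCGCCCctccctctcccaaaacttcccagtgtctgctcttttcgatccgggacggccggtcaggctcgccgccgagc

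**Figure D2:**
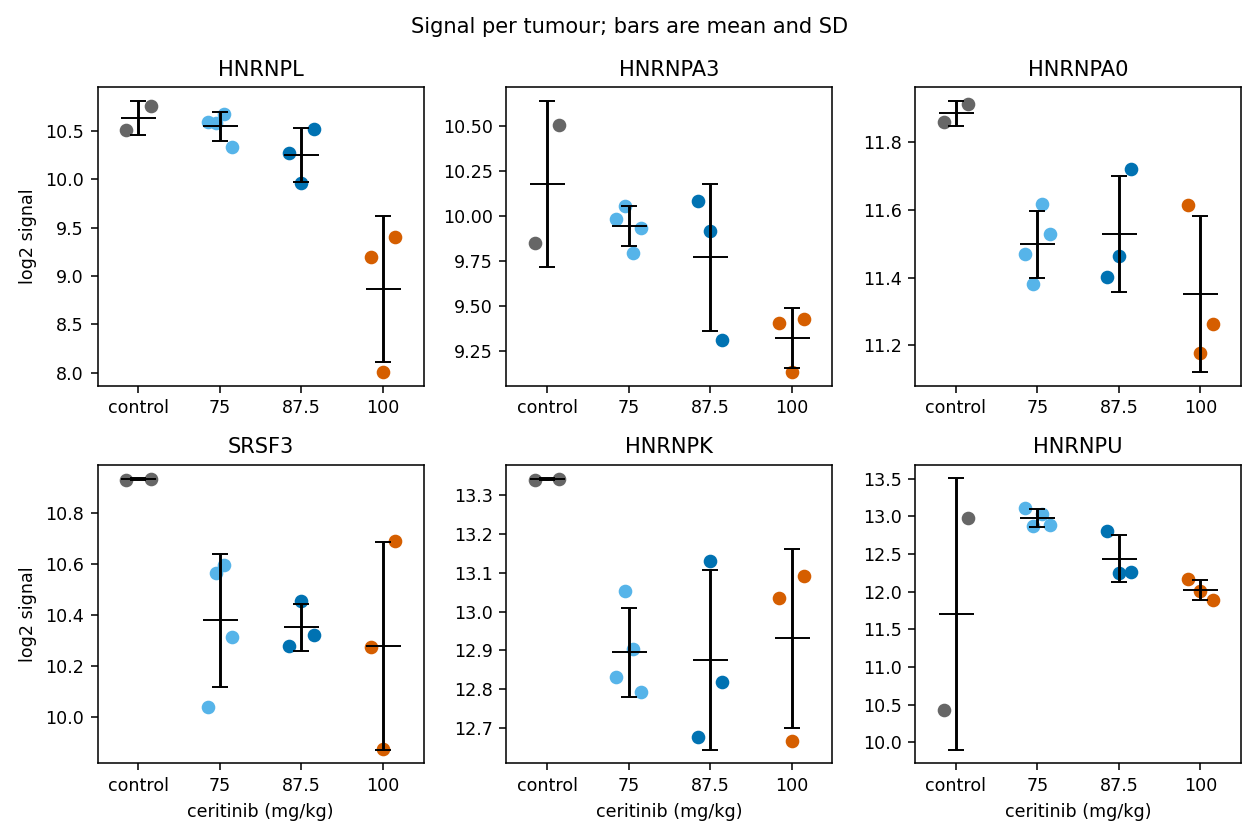
Log2 signal per tumour for 6 members in control tumours and at 75, 87.5 and 100 mg/kg ceritinib, with bars for the mean and SD; each panel has its own scale, which does not start at 0. The 100 mg/kg tumours lie apart from all others for HNRNPL (8.0 to 9.40), while for HNRNPA0, SRSF3 and HNRNPK the treated tumours of every dose lie below both controls.

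HNRNPA3, a member of the A/B family that binds single-stranded nucleic acids and takes part in RNA transport, was lower at 100 mg/kg as well. Its signals were 9.85 and 10.50 in controls, 9.98, 10.06, 9.80 and 9.93 at 75 mg/kg, 10.08, 9.92 and 9.31 at 87.5 mg/kg, and 9.40, 9.13 and 9.43 at 100 mg/kg. The 3 tumours at 100 mg/kg lay below both controls and below all 4 tumours at 75 mg/kg, and 1 tumour at 87.5 mg/kg (9.31) lay among them. It fell 1.81-fold at 100 mg/kg against control (log2 -0.86, SE 0.24, adjusted p = 0.0252). The call rested on single tumours, with -0.53 (adjusted p = 0.233) without control replicate 2 and -0.76 (adjusted p = 0.0772) without replicate 2 at 100 mg/kg. Against 75 mg/kg the difference was -0.62 (SE 0.20, adjusted p = 0.164).

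HNRNPA0, an A/B family protein that binds AU-rich elements and stabilises inflammatory messenger RNAs, was lower in treated tumours. Its signals were 11.86 and 11.91 in controls, 11.47, 11.38, 11.62 and 11.53 at 75 mg/kg, 11.40, 11.46 and 11.72 at 87.5 mg/kg, and 11.61, 11.18 and 11.26 at 100 mg/kg. All 10 treated tumours lay below both controls, whose spread (SD 0.04) was below that of each dose group (SD 0.10, 0.17 and 0.23 at 75, 87.5 and 100 mg/kg). It fell 1.34-fold over the treated tumours (log2 -0.43, SE 0.13, adjusted p = 0.0427) and 1.45-fold at 100 mg/kg (log2 -0.53, SE 0.15, adjusted p = 0.0291), with -0.39 at 75 mg/kg (adjusted p = 0.0995) and -0.36 at 87.5 mg/kg (adjusted p = 0.208). The treated call was lost in 8 of the 12 fits that left out 1 tumour, among them those without control replicate 1 (-0.45, adjusted p = 0.196) or 2 (-0.40, adjusted p = 0.216). The call at 100 mg/kg was lost without control replicate 1 (adjusted p = 0.106) or 2 (0.138), or without replicate 2 (0.0903) or 3 (0.0759) at 100 mg/kg. The promoters of HNRNPA3 and HNRNPA0, the other members called at 100 mg/kg, are printed for comparison with HNRNPL. HNRNPA3 lies at chr2:177212544-177212843 on the plus strand with 1 CCAAT box, 4 GC boxes and 1 E-box, and HNRNPA0 at chr5:137754314-137754613 on the minus strand with 1 CCAAT box and 1 GC box.
HNRNPA3 promoter: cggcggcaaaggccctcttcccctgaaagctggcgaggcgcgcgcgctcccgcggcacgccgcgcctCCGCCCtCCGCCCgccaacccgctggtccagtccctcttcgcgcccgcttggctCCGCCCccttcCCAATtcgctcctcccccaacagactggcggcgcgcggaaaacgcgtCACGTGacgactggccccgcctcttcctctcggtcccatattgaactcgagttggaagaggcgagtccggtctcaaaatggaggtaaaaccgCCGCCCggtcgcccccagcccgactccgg
HNRNPA0 promoter: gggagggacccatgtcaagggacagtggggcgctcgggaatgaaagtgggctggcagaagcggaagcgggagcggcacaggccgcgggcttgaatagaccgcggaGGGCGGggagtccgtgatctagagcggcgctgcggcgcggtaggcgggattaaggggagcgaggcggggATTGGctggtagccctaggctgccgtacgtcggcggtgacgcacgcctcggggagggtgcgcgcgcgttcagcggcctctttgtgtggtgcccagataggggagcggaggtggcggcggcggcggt

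Of the other hnRNP genes, HNRNPK came nearest to the threshold. It encodes a KH domain protein that binds C-rich RNA and DNA and takes part in transcription as well as splicing. Its signal was 12.67 at the lowest, 12.87 at the median and 13.13 at the highest in treated tumours, below both controls at 13.34. The difference was -0.44 (SE 0.14, adjusted p = 0.052), and it was the member with the smallest p at 87.5 mg/kg (log2 -0.46, SE 0.17, adjusted p = 0.131). It passed the threshold in 8 other settings on array processing or spread and 2 that left out a tumour. All 4 of its probes had negative differences, from -0.51 to -0.35. HNRNPF, which binds G-rich tracts, had a difference of -0.29 (SE 0.13, adjusted p = 0.141), and 9 of 10 treated tumours lay below both controls. HNRNPR, which shares its RNA-binding fold with the synaptotagmin-binding protein SYNCRIP, had -0.21 for its brightest probe (adjusted p = 0.302) and -0.39 and -0.35 for the other 2 probes.

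HNRNPU, also called scaffold attachment factor A, binds chromatin-associated RNA and organises chromatin in addition to its part in splicing. Its signals were 10.43 and 12.98 in controls, 13.12, 12.87, 13.03 and 12.88 at 75 mg/kg, 12.80, 12.25 and 12.26 at 87.5 mg/kg, and 12.17, 12.01 and 11.89 at 100 mg/kg. Control replicate 1 was the lowest of all 12 tumours, and the treated tumours descended with dose without overlap between the doses. The difference from control was 0.78 (SE 0.44, adjusted p = 0.25), and it turned to -0.50 (adjusted p = 0.208) without control replicate 1 and to 2.05 (adjusted p = 0.000458) without control replicate 2. No direction against control can therefore be given for HNRNPU. Between 100 and 75 mg/kg, where the controls do not enter the difference, it was -0.95 (SE 0.44, adjusted p = 0.32), a comparison looked at after the values were seen. The same difference had an adjusted p of 0.016 when the fit held only those 2 doses, and of 0.0382 or 0.0388 without control replicate 1 or 2, fits in which the gap between the controls does not enter the shared error. A second, dimmer probe read 7.56 and 7.62 in the controls and had a difference of 0.25 (SE 0.34), so the low value of control replicate 1 was not seen with it. It read 7.90, 7.74, 8.49 and 8.12 at 75 mg/kg, 7.84, 6.43 and 8.03 at 87.5 mg/kg, and 8.32, 8.01 and 7.78 at 100 mg/kg, so the descent with dose was not seen with it either. With the mean of both probes the difference between 100 and 75 mg/kg was -0.49 (adjusted p = 0.443).

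For HNRNPA1, the best known of the family and an antagonist of SRSF1 at many splice sites, the 2 probes went opposite ways. The brighter probe read 8.41 at the lowest, 8.77 at the median and 9.12 at the highest in treated tumours, above both controls at 8.30 and 8.29. Its difference was 0.46 (SE 0.19, adjusted p = 0.113, unadjusted p = 0.0326 in the probe-level fit), and that of the dimmer probe, detected on 10 arrays, was -0.73 (SE 0.25, unadjusted p = 0.0138). With the mean of the probes the difference was -0.14, so no direction can be given for the gene. HNRNPA1L2, a retrogene copy of HNRNPA1, and HNRNPCL2 and HNRNPCL3, copies of HNRNPC, are close enough in sequence to their source genes that a probe may read both, which was not tested. Their differences were 0.11, -0.06 and -0.21, with adjusted p of 0.491, 0.822 and 0.232. The other hnRNP genes did not pass the threshold either. HNRNPA2B1, whose protein sorts RNAs into exosomes and along dendrites, had -0.22, HNRNPH2 -0.23, HNRNPM -0.12, HNRNPD -0.11, HNRNPLL -0.11, HNRNPH3 -0.05, HNRNPC -0.04, HNRNPUL1 -0.03, HNRNPUL2 -0.01, HNRNPH1 0.02, HNRNPDL 0.11 and HNRNPAB 0.13, with adjusted p from 0.264 to 0.959.

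**Figure D3:**
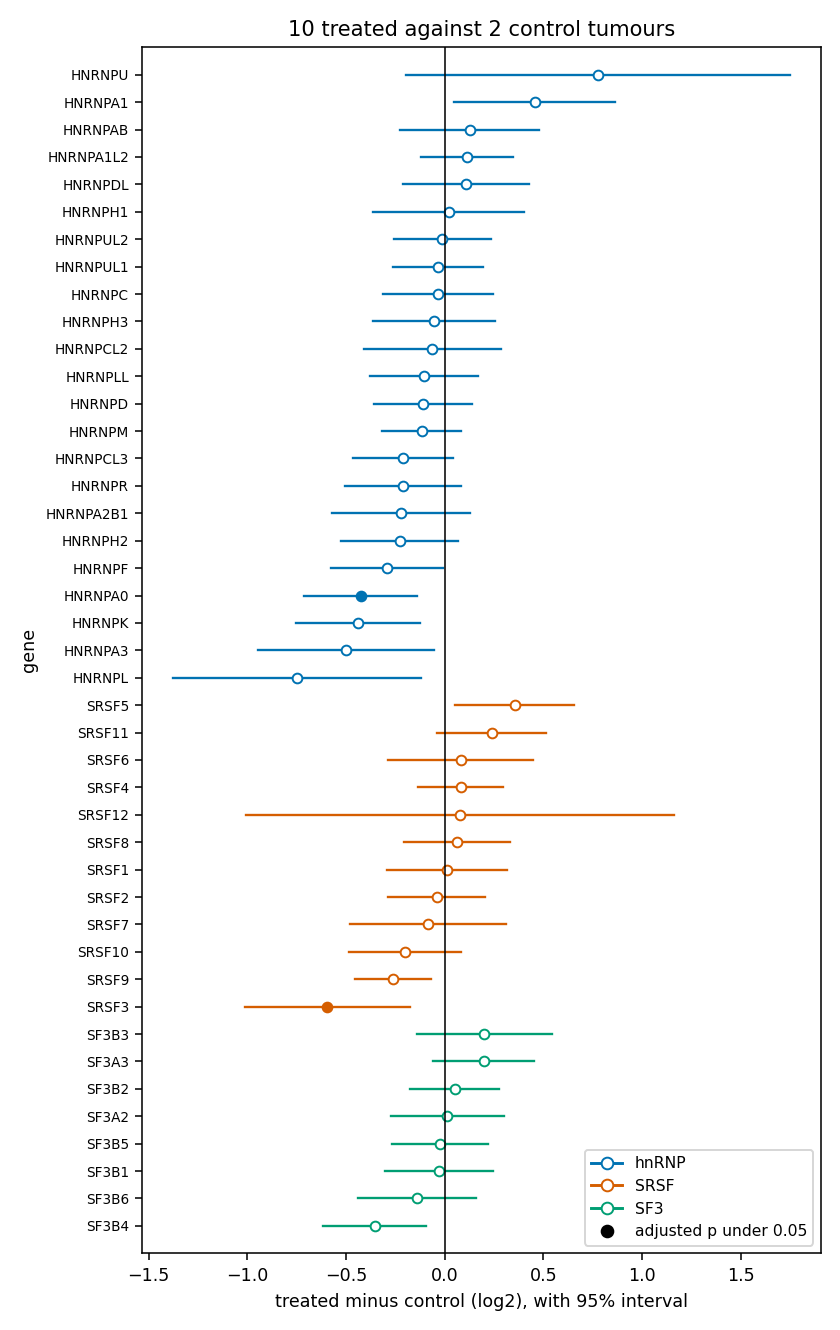
Treated minus control difference (log2, 10 against 2 tumours) with its 95% confidence interval for each tested member, sorted within hnRNP (blue), SRSF (orange) and SF3 (green). The filled points are HNRNPA0 (-0.43) and SRSF3 (-0.60), the members past the threshold, and the intervals of 33 of 43 members hold 0.

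Among the SR proteins, SRSF3 was lower under ceritinib. It encodes the smallest SR protein, which binds pyrimidine-rich sites, helps messenger RNA export and is known as a proto-oncogene. Its signals were 10.93 in both controls, 10.04, 10.57, 10.60 and 10.31 at 75 mg/kg, 10.28, 10.45 and 10.32 at 87.5 mg/kg, and 10.27, 9.87 and 10.69 at 100 mg/kg. All 10 treated tumours lay below both controls, and the doses overlapped. It fell 1.51-fold (log2 -0.60, SE 0.19, adjusted p = 0.0498), which is at the edge of the threshold and was lost in 8 of 12 fits that left out a tumour, with an adjusted p of 0.244 or 0.209 without control replicate 1 or 2. The second probe of SRSF3 had -0.48 (SE 0.12). The promoter of SRSF3, the SR protein called, lies at chr6:36594112-36594411 on the plus strand, with 2 CCAAT boxes 70 and 55 bases before the start and a TATA box 30 bases before it.
SRSF3 promoter: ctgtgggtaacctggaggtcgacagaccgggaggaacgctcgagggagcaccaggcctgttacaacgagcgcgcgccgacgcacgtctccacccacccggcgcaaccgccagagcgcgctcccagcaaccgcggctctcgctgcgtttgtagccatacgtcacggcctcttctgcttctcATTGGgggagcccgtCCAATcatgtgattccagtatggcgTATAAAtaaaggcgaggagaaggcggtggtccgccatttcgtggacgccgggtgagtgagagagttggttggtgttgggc

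SRSF9, which takes part in the choice of alternative splice sites, read 13.46 to 13.63 in treated tumours with a median of 13.56, and 13.88 and 13.76 in controls. Its difference of -0.26 (SE 0.09, adjusted p = 0.0577) missed the threshold, although the treated tumours all lay below both controls. SRSF5, which encodes an SR protein first described from regenerating rat liver, read 13.80 to 14.29 in treated tumours with a median of 14.05, and 13.76 and 13.64 in controls. Its difference of 0.35 (SE 0.14, adjusted p = 0.0977) was the highest of the family, with all treated tumours above both controls, and its second probe had 0.25 (SE 0.13). SRSF11 had 0.24 and SRSF10, a repressor of splicing when dephosphorylated, -0.20, with adjusted p of 0.214 and 0.309. SRSF1, the founding member of the family and a proto-oncogene, had 0.01 (SE 0.14), with an interval from -0.29 to 0.32. SRSF2, whose gene is mutated in myeloid neoplasms, had -0.04 (SE 0.11). SRSF4, SRSF6, SRSF7, SRSF8 and SRSF12 had 0.08, 0.08, -0.09, 0.06 and 0.08. SRSF12 was detected on 9 of 12 arrays and had the widest interval, from -1.01 to 1.16.

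No SF3 gene passed the threshold in any comparison of the main limma fit (1 of 8 at an unadjusted p under 0.05 in treated tumours). SF3B4, a subunit that contacts pre-messenger RNA upstream of the branch point, was closest. It read 13.43 to 13.87 in treated tumours with a median of 13.63, and 14.10 and 13.87 in controls, so 9 of 10 treated tumours lay below both. Its difference was -0.36 (SE 0.12, adjusted p = 0.0598), and at 75 mg/kg it was the member with the smallest p (-0.38, SE 0.13, adjusted p = 0.0783). In treated tumours SF3B4 passed the threshold with no background correction, median scaling, unnormalized signals, the trended variance and array weights. Over the 11 other settings on array processing or spread its adjusted p ran from 0.00772 to 0.118. The fits that left out a tumour gave -0.47 to -0.24. SF3B3, which is also part of a histone acetyltransferase complex, had 0.20 (SE 0.16, adjusted p = 0.405), and this was -0.03 with unnormalized signals. SF3B1, the scaffold that closes around the branch point adenosine, had -0.03 (SE 0.12, adjusted p = 0.9) for its brightest probe. Its 2 dimmer probes, detected on 5 and 10 arrays, had -1.07 (SE 0.20, unadjusted p = 0.000199) and -0.40 (SE 0.12, unadjusted p = 0.00568), and the mean of the 3 had -0.50 (adjusted p = 0.0143), so the value for SF3B1 depends on the choice of probe. SF3A2, SF3A3, SF3B2, SF3B5 and SF3B6 had 0.01, 0.20, 0.05, -0.02 and -0.14, with adjusted p from 0.265 to 0.961.

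**Figure D4:**
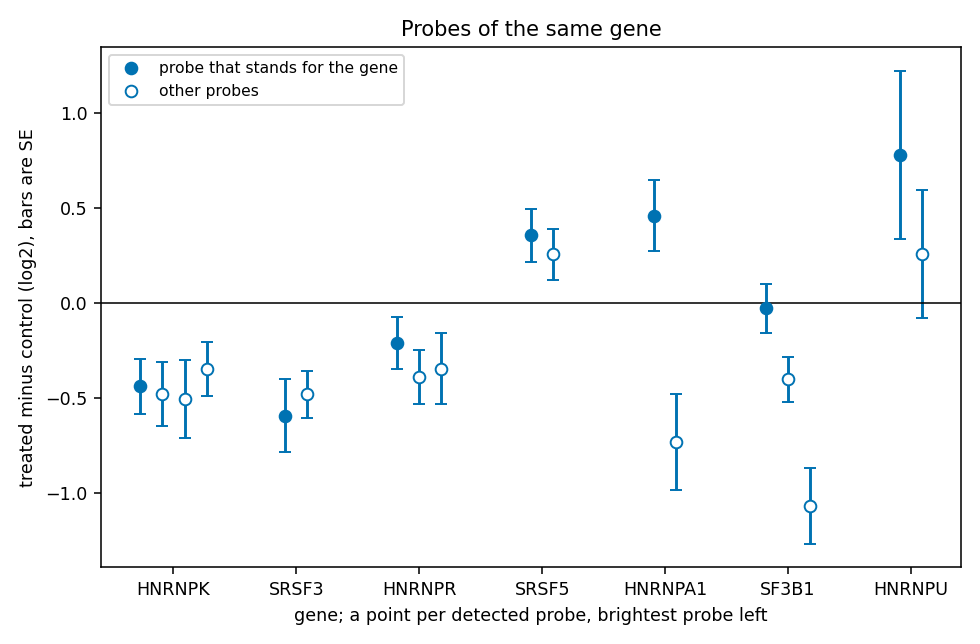
Treated minus control difference (log2) with its SE for each detected probe of 7 members, brightest probe at the left and filled. The probes of HNRNPK, SRSF3, HNRNPR and SRSF5 share a sign, those of HNRNPA1 oppose each other (0.46 and -0.73), and the brightest probe of SF3B1 (-0.03) lies above its dimmer ones.

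Several probes were kept for 20 members, and for 18 of them all probes had the same sign of difference, 12 negative and 6 positive. The exceptions were HNRNPA1 and HNRNPUL1, and the opposite probes passed an unadjusted p of 0.05 for HNRNPA1 alone. The highest mean signals belonged to HNRNPD, HNRNPA2B1 and SRSF2, at 14.35, 14.30 and 14.10, and the lowest to SRSF12, HNRNPCL2 and HNRNPCL3, at 6.41, 7.23 and 7.86. These are probe brightness, which differs between probes, and they give no order of transcript abundance.

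The doses were compared with the controls one by one, and all 3 comparisons share the same 2 control tumours. At 75 mg/kg limma called 0 of 43 members (9, or 20.9%, at an unadjusted p under 0.05, against 30.1% of all genes), where 14.5% of all genes were called, and at 87.5 mg/kg 0 (5, or 11.6%, at an unadjusted p under 0.05, against 21.1%), where 6.18% were called. At 100 mg/kg 3 members (6.98%) were called, HNRNPL, HNRNPA3 and HNRNPA0, all lower, where 22.1% of all genes were called and 10.2% were lower, and 11 members (25.6%) had an unadjusted p under 0.05, against 35.3% of all genes. All 3 were hnRNP genes, 3 of 23 (13%), which is below the share of all genes. At an unadjusted p under 0.05 there were 6 of these 23 (26.1%). Of the SRSF genes 0 of 12 were called (4, or 33.3%, at an unadjusted p under 0.05), and of the SF3 genes 0 of 8 (1, or 12.5%). SRSF3 had -0.55, -0.58 and -0.65 at 75, 87.5 and 100 mg/kg, with adjusted p of 0.105, 0.158 and 0.0585. HNRNPK had -0.45, -0.46 and -0.41 at the same doses, with adjusted p of 0.0846, 0.131 and 0.103.

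Between doses, 1 member, HNRNPL, was called at 100 against 75 mg/kg (2.33%), where 0.667% of all genes were called and 0.423% were lower, and 4 members (9.3%) had an unadjusted p under 0.05, against 15.7% of all genes. At 100 against 87.5 mg/kg limma called 0 members (1 at an unadjusted p under 0.05, against 16% of all genes) and 0.78% of all genes. At 87.5 against 75 mg/kg it called 0 members and 0% of all genes, with 0 members at an unadjusted p under 0.05, and the smallest p belonged to HNRNPCL2 (0.31, SE 0.16, adjusted p = 0.616). The tumours at 100 and 75 mg/kg did not overlap for 8 members (18.6%), against 18.8% of all genes. HNRNPA3, HNRNPL, HNRNPU and SRSF10 were the lower 4 (8.38% of all genes) and HNRNPF, HNRNPLL, SF3B6 and SRSF12 the higher 4 (10.4% of all genes). At 100 against 87.5 mg/kg the tumours did not overlap for 3 members, HNRNPL, HNRNPU and HNRNPH3 (18% of all genes), and at 87.5 against 75 mg/kg for HNRNPU alone (7.14% of all genes).

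Taken as the mean of the 3 doses against control, the differences of the members were small beside those of the array as a whole. Their median size, with the sign left off, was 0.117 for the 43 members and 0.242 for all 12300 genes. In this mean 0 members differed by more than 1 on the log2 scale, against 7.48% of all genes. At single doses HNRNPL had -1.77 at 100 mg/kg, and HNRNPU, with controls at 10.43 and 12.98, had 1.27 at 75 mg/kg. The spread of the members was smaller as well, with a median SD over the treated tumours of 0.166 for the members and 0.237 for all genes, and a median SE of 0.131 and 0.162. Of the members, 42 (97.7%) were detected on all arrays, against 82.4% of all genes. Their probes were brighter, with a median log2 signal of 11.88, against 9.19 for all genes. The part of detection and brightness in the size and spread of the differences was not tested. The 95% interval lay within 1 log2 unit of 0 for 39 members. The distance from a difference to the end of its interval ran from 0.193 to 1.09 with a median of 0.287, so differences of that order in single members could not be told from none.

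**Figure D5:**
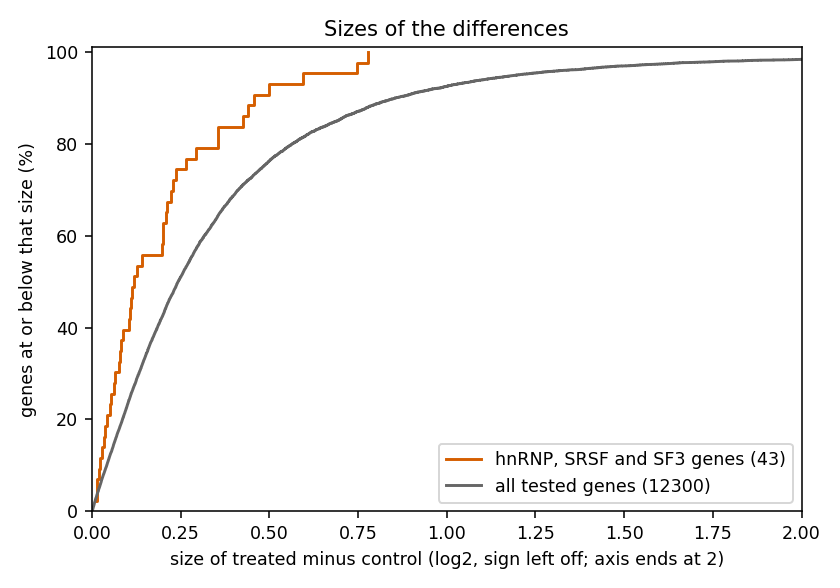
Share of genes (%) whose treated minus control difference is at or below a given size (log2, sign left off), for the 43 members (orange) and all 12300 tested genes (grey), with the axis ending at 2. The orange line rises faster and ends at 0.78, and 93% of the members lie under 0.5, against 76.3% of all genes.

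Promoter sequences were available for 41 of the 45 members, with 56 promoters, since a gene can have several starts, and where several starts are listed the one farthest upstream was printed above. HNRNPA1, HNRNPCL3, SF3B3 and SRSF2 had none in the table used. Motifs were counted on both strands in the 300 bases, for the CCAAT box (CCAAT), the GC box (GGGCGG), the E-box (CACGTG), the ETS site (CCGGAAG), the TATA box (TATAAA) and the cyclic AMP response element (TGACGTCA). The CCAAT box was in 44.6% of the members' promoters and 34.6% of all 35116 promoters, and by family in 21 of 33 hnRNP, 3 of 14 SRSF and 1 of 9 SF3 promoters. The promoters printed for HNRNPL, HNRNPA3, HNRNPA0 and SRSF3 all hold it. The ETS site was in 19.6% of the members' promoters and 10.3% of all, with 6 of the 9 SF3 promoters holding it, and in 0 of the 4 printed. The GC box was in 60.7% against 45% of all and the E-box in 17.9% against 7.26%. The TATA box was in 10.7% against 11.5% and the cyclic AMP response element in 0% against 1.85%. The members' promoters had a median GC content of 63.8%, against 58.7% for all, which bears on how often GC-rich motifs turn up, and the motif shares describe sequence only.

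Other splicing genes were set beside the members from lists of general knowledge. Of 64 tested core spliceosome genes, 3 (4.69%) passed the threshold, against 18.8% of all genes, with a median difference of -0.01. XAB2, a helical repeat protein of the active spliceosome, rose by 0.49 (SE 0.15, adjusted p = 0.0425). SNRNP40, a U5 particle protein, fell by 0.30 (SE 0.10, adjusted p = 0.0464), and SNRPD1, an Sm core protein, fell by 0.47 (SE 0.15, adjusted p = 0.0484). These 3 calls ended without control replicate 1 or 2, each of which left 0 in this list.

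Of 77 tested SR protein kinases and other regulators, 7 (9.09%) passed the threshold, against 18.8% of all genes, 2 higher and 5 lower, with a median difference of -0.01. SRPK3, a kinase that phosphorylates SR proteins and is best known from muscle, rose 1.85-fold (log2 0.88, SE 0.15, adjusted p = 0.00238), and BCLAF1, an SR-related protein, had 0.41 (SE 0.13, adjusted p = 0.045). The value for BCLAF1 depended on the probe, with 0.0047 (adjusted p = 0.987) for the mean of its probes, and the call held in 6 of 12 other settings and in 2 of 12 that left out a tumour. RBFOX2, which binds beside alternative exons and takes part in epithelial and mesenchymal splicing, fell 1.53-fold (log2 -0.61, SE 0.10, adjusted p = 0.00216). PTBP3, a polypyrimidine tract binding protein, fell 1.57-fold (log2 -0.66, SE 0.11, adjusted p = 0.00226). TNPO3, the importin that carries phosphorylated SR proteins into the nucleus, fell by 0.55 (SE 0.13, adjusted p = 0.0118). RALYL, an RNA-binding protein related to the C group of hnRNPs, was detected in 0 of 10 treated tumours and in both controls. It passed the detection filter through the controls alone, so no size is given and its call is not read further, though it is counted in the 7 and in the 5 lower. RBM4, chosen after its value was seen, fell by 0.37 (SE 0.11, adjusted p = 0.0351). In this list 2 calls were left without control replicate 1 and 3 without control replicate 2.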

How the data were processed

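Total RNA from 12 H3122 xenograft tumours was hybridised as biotinylated cRNA to human Illumina Expression BeadChips, per the labels' protocols. The deposited tables hold average signal intensities per probe on a linear scale, not normalized, with the authors' detection p-value beside each, as the file columns give them. The 2 tables list the same intensities in the same order under different probe IDs, which match at 1 of 47323 positions. The IDs of the value table were used, since GAPDH then had a median log2 intensity of 14.7, against 8.89 with the other IDs. The intensities were not normalized in the value table either, so no values processed by the authors could be tested, and unnormalized log2 signals were tried instead. No slide or batch was given in the sources used here. Of the probes, 30113 had 1 gene symbol in the platform annotation, 8 had several and 17202 had none.

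Signals were background corrected and quantile normalized with neqc in limma 3.58.1 (R 4.3.3, offset 16), which estimated the negative controls from detection p-values, and taken to log2. A probe was used if its detection p fell below 0.01 on 2 or more arrays and it had 1 gene symbol, which left 16291. Each gene was read from its brightest probe on average. One limma fit (lmFit and eBayes) of the 4 groups to 12300 genes gave every comparison, with Benjamini-Hochberg adjustment over all genes and a threshold of 0.05. "Treated" is the unweighted mean of the 3 doses, so a difference can depart slightly from that of the means over tumours. Probe-level p-values are from a separate fit of the same form to all probes past the detection limit, with or without a gene symbol. Depth does not apply to arrays, and the number of tumours, with 2 controls, limits the precision. On simulated data with 200 changed genes among 12300, the treated against control test recovered 25.4% at a log2 change of 0.5, 67.2% at 1 and 97% at 2, and 3.08% of its calls were false. The simulated noise was independent between genes, and the changed genes were drawn from all genes, not the members. In the data a larger share, 18.8%, passed the threshold, so these rates need not hold for the members.

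The members and lists were chosen with earlier results of these data known. The naming rule took members past the threshold in a comparison (the member with the smallest p where none passed), the highest and lowest difference of each family, the highest and lowest mean signals, undetected members, members with opposed probes, and up to 4 genes each way from the other lists. The other members were named after their values were seen. The alternatives covered the background correction, offset, scaling, detection filter, choice of probe, variance model, array weights, replicate number as a block, the groups in the fit, a fold limit of 1.5 and each tumour left out. Python 3.11.15 with pandas 2.3.3 and matplotlib 3.10.9 read the promoters and drew the figures.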

Additional observations from a re-analysis of the deposited data

Results flagged for a closer look

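HNRNPL differed between the doses. At 100 against 75 mg/kg its log2 difference was -1.68 (limma, adjusted p = 0.0333), with the 3 tumours at 100 mg/kg at 8.0 to 9.40 and the 4 at 75 mg/kg at 10.33 to 10.68. The difference kept its sign, and lost the threshold, when any 1 of these 7 tumours was left out.

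SRSF9 had 1 tumour apart from the others of its group. At 75 mg/kg replicate 1 read 13.53 and the other 3 tumours 13.62 to 13.63, so the gap to the nearest tumour was 0.929 of the group's range, over Dixon's limit for a group of 4. Of the 43 members examined this way at 75 mg/kg, 1 was past the limit, and chance gives about 1 in 20.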

How the results depend on the processing

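With 2 controls, leaving out either ends most calls, and of the calls on members only HNRNPL at 100 mg/kg against control passed the threshold under every alternative. Signal over background limits SF3A1 and HNRNPCL1, which were not detected, and SRSF12, detected on 9 arrays. Treated against control, 2 members were called, against 5 with no background correction, 7 with median scaling, 11 with unnormalized signals, 0 with no detection filter, 4 with the mean of probes, 5 with a trended and robust variance, 6 with array weights and 1 with a fold limit of 1.5. Leaving out a tumour gave 0 to 4, with 0 without control replicate 1, 1 without control replicate 2 (HNRNPU, higher) and 4 without replicate 2 at 87.5 mg/kg. At 75 mg/kg the 0 calls became 8 with median scaling, 12 unnormalized, 2 with the mean of probes and 1 each with the trended variance, array weights and only the compared groups, and 0 to 1 with a tumour left out. At 87.5 mg/kg the 0 calls became 1 with median scaling, 6 unnormalized and 1 with array weights, and 0 to 1 with a tumour left out. At 100 mg/kg the 3 calls became 6 with no background correction, 7 unnormalized, 5 with the mean of probes, 6 with the trended variance, 7 with array weights and 2 with only the compared groups (HNRNPA0 lost), and 1 to 4 with a tumour left out (1 without replicate 2 at 100 mg/kg). At 100 against 75 mg/kg the 1 call became 0 unnormalized and 3 with only the compared groups, and 0 to 2 with a tumour left out. At 100 against 87.5 mg/kg the 0 calls became 1 with no background correction, with an offset of 50 and with array weights, and 0 to 1 with a tumour left out. At 87.5 against 75 mg/kg every alternative gave 0. The core spliceosome list had 3 calls, against 6 with median scaling, 17 unnormalized, 1 with no detection filter, 5 with the mean of probes, 0 with a fold limit of 1.5, and 0 to 3 with a tumour left out. The kinases and other regulators had 7, RALYL among them, against 16 unnormalized, 11 with array weights, 4 with a fold limit of 1.5, and 2 to 11 with a tumour left out. The sign turned for HNRNPU without control replicate 1 (-0.50, against 2.05 without control replicate 2), SF3B3 unnormalized (-0.028), HNRNPA1 with the mean of probes (-0.14), and SF3B1 without control replicate 1 (0.016) or without replicate 2 at 100 mg/kg (0.008), with -0.074 to 0.016 over all tumours left out. The cause of these changes was not tested.

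The labels do not say if the replicate numbers pair the tumours. Same-numbered tumours of 2 groups had deviations correlated at -0.221 to 0.375 (median -0.03, 15 pairs, 4 over 0.1). For tumours of different number they were correlated at -0.395 to 0.386 (median -0.0065, 38 pairs, 11 over 0.1). The deviations of the 2 controls mirror each other by construction, and these correlations cannot exclude a pairing. With the replicate number as a block, 0 members were called for treated against control, 0 at 100 against 75 mg/kg and 0 in the core spliceosome list. At 100 mg/kg against control 2 were called with the block, HNRNPL and HNRNPH2, and HNRNPA3 (adjusted p = 0.0808) and HNRNPA0 (adjusted p = 0.0571) were not.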
